A study of Mus musculus with 21 samples.

Results

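Late NPK tumours, labelled NPK_3Month, were set against NP tumours across the transcriptome. The members of the comparison are the 2 arrays titled NPK_3Month and the 8 titled NP, 10 of the 21 arrays of the series, chosen by their titles. NPK_3Month stands for prostate tumours of genotype NPK taken at 3 months and described as late, and NP for prostate tumours of genotype NP with no time point in the labels. The labels spell out neither genotype and do not say from what event the months are counted. In published work on these mice, both groups carry a tamoxifen-inducible Cre active in luminal cells of the prostate. The labels name the anterior prostate as the source of both groups. Each array measured 1 sample with an identifier of its own, but whether each is a different animal is not settled by the labels. The p-values therefore cover only the variation among the samples at hand, which may be technical.

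PI3-kinase signalling promotes growth and survival of prostate cells, and the RAF, MEK and ERK kinases induce the ETS factors of the PEA3 family and many feedback inhibitors. The study asked about ETV4, a PEA3 factor. Prostate carcinomas that advance can lose cell junctions and gain mesenchymal genes such as Vim, and the immune system sees tumour cells through peptides carried by MHC molecules, whose genes respond to interferon. Expression was read as the brightness of bead probes, and every level below is a normalized intensity on the log2 scale, so that a difference of 1 is a 2-fold change. A gene is represented by its brightest probe. Levels of different genes rest on different probes and are not compared.

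The 2 NPK_3Month arrays detected 19489 and 19600 probes and the NP arrays 19063 to 20405. A probe counted as detected where its intensity passed p under 0.01 in a normal noise model set from the array's own negative intensities. NP replicates 4 and 5 were the most alike of all replicate pairs (SD of log2 differences 0.13, next closest pair 0.31) and were counted as 1 sample, which left n = 2 and n = 7. The 2 NPK_3Month arrays differed more from each other than any other pair, with an SD of 0.85 and 391 of 3299 bright genes over 2-fold apart, so both are given singly throughout. They shared a chip with the 3 arrays of NPK tumours at 1 month, labelled NPK_1Month, and the NP arrays lay on 2 other chips. Chip and genotype cannot be told apart in NPK_3Month against NP, and the difference from NPK_1Month, within 1 chip, is given beside results as a description. The NPK_1Month arrays carried high levels of genes of other tissues: the mean level of 10 seminal vesicle genes was 5.48 and 7.12 in NPK_3Month arrays and 10.8 to 14.6 in NPK_1Month arrays, and that of 16 skeletal muscle genes 6.58 and 6.37 in NPK_3Month arrays and 8.94 to 9.41 in NPK_1Month arrays. In NPK_3Month against NPK_1Month 7 of the 10 and 10 of the 16 were lower, with medians of -6.47 and -2.98, and their part in the other differences from NPK_1Month was not tested. Between the chips of NP (3 and 4 samples) 1027 genes differed in a limma test (adjusted p). Krt8 and Krt18, keratins of the luminal epithelium, were bright in both groups: Krt8 read 14.09 and 14.10 in NPK_3Month tumours and 14.44 to 14.88 in NP tumours.

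Of 13195 genes tested with limma, 6134 (46.5%) passed an adjusted p of 0.05, 3096 higher in NPK_3Month (23.5%) and 3038 lower (23%). The median change over all genes was -0.04. A count within a gene group is read against these shares. Both NPK_3Month arrays lay above every NP sample for 26.1% of genes and below every NP sample for 25.6%. Among the 6134 genes that passed, both arrays lay on the same side of the NP mean in 6118, and the first array was the farther one in 3777. Its median distance from the NP mean was 1.24, against 1.09 for the second array. Without the first array the test called 1920 genes higher and 1965 lower, and without the second 2418 and 2300, with the lone array assumed to vary like the other groups.

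A stricter set asked that every kept probe of a gene passed in the same direction with both NPK_3Month arrays outside the NP range. Of the 5394 genes with 2 or more probes, 542 met this upward (10%) and 329 downward (6.1%). These are called multi-probe rises and falls below. In 3447 genes that passed, only 1 probe was kept and no such check exists. Over the other probes of the genes that passed, 76.96% moved the same way, with a median of 56.0% of the change of the probe used. The 10 multi-probe rises and the 10 multi-probe falls ranked first, by the probe with the smaller change, are named next. Among the rises were Rrm2, the small subunit of ribonucleotide reductase, Birc5 (survivin) of the chromosomal passenger complex, and the mitotic genes Cdca3 and Cdca8. Cdca3 read 11.82 and 11.56 in NPK_3Month tumours and 7.59 to 8.16 in NP tumours, 13.4-fold higher, and Cdca8 rose by 3.28.

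Of the 10 rises, Prl2c2 and Add2 were detected on none of the 8 NP arrays. Prl2c2, a proliferin of the prolactin family, read 11.65 and 9.44 in NPK_3Month tumours and 4.45 to 4.64 in NP tumours, where no array detected it. Its level was at least 32.2-fold higher in NPK_3Month, set against the lowest detected level on each NP array, and its other probe changed by 3.37. Prl2c2 passed the detection filter only through the 2 NPK_3Month arrays, so its call and its rank are not independent of that selection. It was not tested where detection on at least 3 arrays was required. Add2, an adducin of the membrane skeleton, read 10.47 and 8.62 in NPK_3Month tumours and 4.49 to 5.33 in NP tumours, at least 16.1-fold higher (adjusted p = 1.36e-05). Both NPK_3Month arrays stood clear of NP for these genes, the first array by more. Gldc, glycine decarboxylase, read 11.49 and 11.27 in NPK_3Month tumours, against 4.97 to 7.22 in NP tumours with a median of 6.50, a change of 5.19 ± 0.56 SE. Klra4, named for an NK cell receptor, read 12.08 and 9.44 in NPK_3Month tumours and 4.66 to 6.75 in NP tumours. The remaining rises of the 10 were Dok1, an adaptor protein, by 3.68 and the histone gene H2ac12 by 3.62. Prl2c2, Klra4 and H2ac12 belong to families of near-identical genes, so the copy measured is uncertain.

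The 10 multi-probe falls held MHC class I genes, the class II-associated Cd74, given with the MHC genes below, gasdermins and secreted proteins. H2-Q8 read 5.17 and 5.77 in NPK_3Month tumours and 9.88 to 12.09 in NP tumours, a change of -5.67 ± 0.73 SE (adjusted p = 5.58e-06). H2-Q6 fell by 4.63, and since the Qa-region genes are near-identical, the copy is again uncertain. Gsdmc3, a gasdermin of epithelia, read 6.60 and 10.90 in NPK_3Month tumours, against 13.36 to 14.01 in NP tumours, and Gsdmc2, a near-identical gene, 7.88 and 11.28 against 13.74 to 14.02. For both gasdermins the first NPK_3Month array was far lower than the second. Cxcl17, a mucosal chemokine, showed the same gap, at 6.65 and 11.49 in NPK_3Month tumours and 12.78 to 14.60 in NP tumours. Elapor1 fell by 4.96, C130026I21Rik by 4.59, Vnn3, a vanin, by 3.97 and Stfa1, a stefin of a near-identical family, by 4.79.

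**Figure D1:**
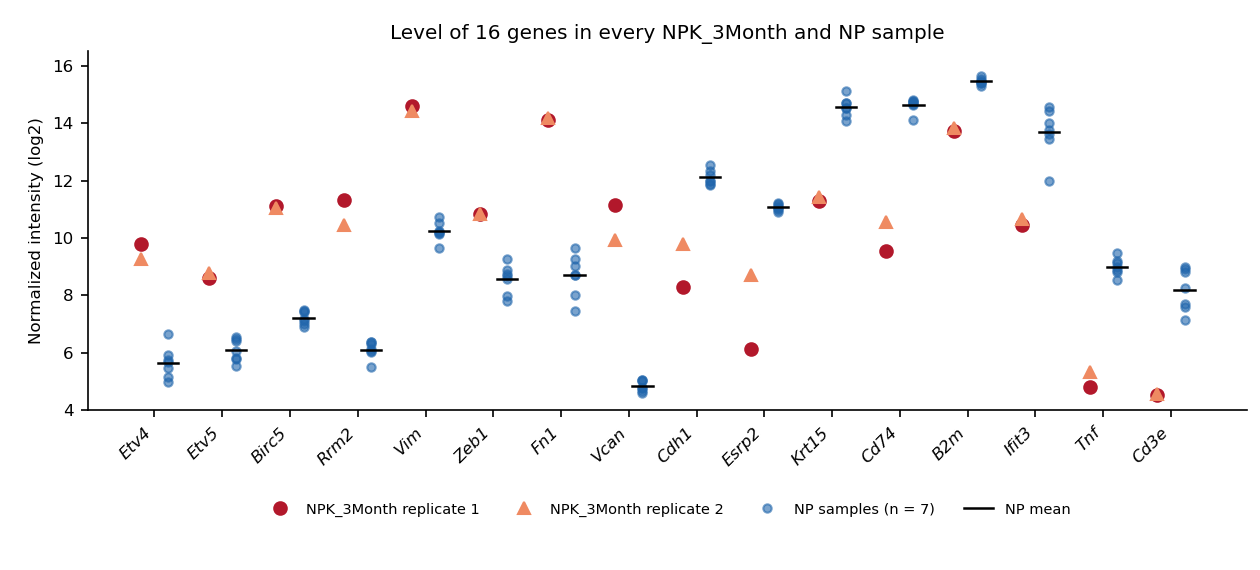
Normalized intensity on a log2 axis of 16 genes named in the text, one column of points per sample group. Red circles and orange triangles are the 2 NPK_3Month arrays, blue circles the 7 NP samples and black bars the NP means. No NPK_3Month point lies within the NP range for any of these genes, as for Vim at 14.59 and 14.41 in NPK_3Month and 9.67 to 10.72 in NP.

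The PEA3 factors were measured first, as the genes the study asked about. Etv4 read 9.78 and 9.26 in NPK_3Month tumours, and 4.98, 5.67 and 6.67 as the lowest, median and highest of NP. It was 14.5-fold higher in NPK_3Month (log2 change 3.86 ± 0.51 SE, limma adjusted p = 7.7e-06), from 1 probe that was detected on 4 of 8 NP arrays. Etv5 read 8.61 and 8.79 in NPK_3Month tumours and 5.54 to 6.57 in NP tumours, a change of 2.60 ± 0.37 SE (adjusted p = 1.55e-05), and its second probe changed by 1.65. Neither gene's groups overlapped.

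Etv1 gave different answers from different probes. The brightest probe, which stands for the gene, read 8.53 and 6.08 in NPK_3Month tumours and 5.59 to 7.45 in NP tumours, and its change of 0.88 ± 0.62 SE did not pass (adjusted p = 0.252). The other probes changed by 3.49 ± 0.46 SE and 3.20 ± 0.40 SE (adjusted p = 7.7e-06 and 4.4e-06 over all probes). They read 9.10 and 7.39 and 8.92 and 7.12 in NPK_3Month tumours, against highest NP values of 5.10 and 5.05, with no NP array detecting either. On all 3 probes the first NPK_3Month array was the higher one.

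Genes downstream of RAS and ERK mostly rose. Of the 19 tested of the 26 listed, 12 rose, none fell and 7 did not pass, with a median change of 1.29. Dusp6, a phosphatase that feeds back on ERK, read 13.56 and 13.37 in NPK_3Month tumours and 11.05 to 11.69 in NP tumours, a change of 2.11 ± 0.27 SE (adjusted p = 5.53e-06). Its other probes changed by 3.04 and, without passing, by 0.55. Hbegf, an EGF receptor ligand, read 10.34 and 10.45 in NPK_3Month tumours and 7.19 to 7.80 in NP tumours, 8.12-fold higher. Plaur, the urokinase receptor, rose by 3.07 and Emp1, an epithelial membrane protein, by 2.91. The groups did not overlap for any of these. Cyclin D1, encoded by Ccnd1, rose by 2.24 ± 0.31 SE on the probe used, and all 3 of its probes agreed.

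Not every gene of the axis moved this way. Dusp4 changed by 0.18, Phlda1 by -0.65 and Myc by 0.86, none past the test. Of the immediate early list 7 of 17 rose, and 2 fell: Jun, a subunit of AP-1, read 8.63 and 8.69 in NPK_3Month tumours and 10.41 to 10.99 in NP tumours, and Fosl2 fell by 0.89 on the probe used, while its other probe changed by 0.70 without passing. With the first NPK_3Month array left out 2 of that list's members rose, and with the second left out 3. In the EGF family, Nrg1, a neuregulin, was at least 4.04-fold higher in NPK_3Month and was detected on no NP array. Erbb2, a receptor of the family, fell by 1.80, and Errfi1, a feedback inhibitor of EGFR, rose by 1.11.

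Genes of mitosis gave the largest median rise of the gene lists, 3.37 over 24 tested members. Of these 22 rose, none fell, and Cenpf and Spc24 did not pass. Promoters of 2 of them, of 1 replication gene and of 2 interferon-stimulated genes are shown because most members of each list moved together. They are the called members with the largest change among those with no overlap between groups and a match to the motif searched. Genes on 1 chromosome were left out of this choice, which was made after the values were seen. Each runs 5′ to 3′ from 250 bases before the annotated start to 50 after it (RefSeq, GRCm38.p6). Capitals mark the matches, on either strand: TTTGAA, the letters of the cell cycle homology region CHR, in Kif22 (chr7:127042371-127042670, minus strand) and Cdc20 (chr4:118437294-118437593, minus strand); TTTNNCGC, the letters of an E2F site, in Mcm5 (chr8:75109259-75109558, plus strand), where 2 matches on opposite strands overlap; and GAAA, any 2 bases and GAAA again, those of the interferon-stimulated response element ISRE, in Igtp (chr11:58199306-58199605, plus strand) and Ifit3 (chr19:34583279-34583578, plus strand).
Kif22: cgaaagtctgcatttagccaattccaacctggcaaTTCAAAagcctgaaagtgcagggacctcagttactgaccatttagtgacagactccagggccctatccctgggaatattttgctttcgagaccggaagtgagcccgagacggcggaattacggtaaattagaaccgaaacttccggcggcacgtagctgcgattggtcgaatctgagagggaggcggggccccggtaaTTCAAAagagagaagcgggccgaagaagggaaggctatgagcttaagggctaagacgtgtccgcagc
Cdc20: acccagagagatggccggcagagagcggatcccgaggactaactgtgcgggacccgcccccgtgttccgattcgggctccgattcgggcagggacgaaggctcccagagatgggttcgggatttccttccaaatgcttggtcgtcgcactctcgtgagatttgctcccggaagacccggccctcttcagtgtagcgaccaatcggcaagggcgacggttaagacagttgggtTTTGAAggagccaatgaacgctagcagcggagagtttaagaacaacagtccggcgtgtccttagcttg
Mcm5: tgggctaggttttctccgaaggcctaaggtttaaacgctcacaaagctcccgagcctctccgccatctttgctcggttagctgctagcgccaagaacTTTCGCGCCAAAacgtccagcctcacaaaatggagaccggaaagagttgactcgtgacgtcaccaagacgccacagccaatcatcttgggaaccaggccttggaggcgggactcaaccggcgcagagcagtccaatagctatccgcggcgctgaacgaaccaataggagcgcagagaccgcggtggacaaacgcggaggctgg
Igtp: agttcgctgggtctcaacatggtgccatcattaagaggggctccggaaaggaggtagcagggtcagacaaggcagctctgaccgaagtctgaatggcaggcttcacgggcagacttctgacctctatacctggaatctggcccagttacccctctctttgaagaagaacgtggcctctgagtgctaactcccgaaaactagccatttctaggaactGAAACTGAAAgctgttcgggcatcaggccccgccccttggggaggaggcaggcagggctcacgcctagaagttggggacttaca
Ifit3: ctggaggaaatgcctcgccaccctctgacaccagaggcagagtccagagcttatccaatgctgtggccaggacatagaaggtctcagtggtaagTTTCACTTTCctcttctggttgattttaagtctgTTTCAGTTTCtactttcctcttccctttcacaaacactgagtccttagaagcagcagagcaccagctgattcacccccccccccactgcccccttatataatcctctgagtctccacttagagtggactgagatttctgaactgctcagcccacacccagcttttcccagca

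The CHR letters stood in the promoters of 22 of 28 mitosis genes with a promoter in the table (78.6%), tested or not, and in 20.2% of all 27025 genes there. Cdc20 has its match 18 bases before the start. The E2F letters stood in 11 of 24 replication genes (45.8%) and in 5.93% of all genes. Matches to letters are a description of these windows.

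Cdc20, an activator of the anaphase-promoting complex, read 11.68 and 11.18 in NPK_3Month tumours and 6.96 to 8.13 in NP tumours, and its 4 probes changed by 2.66 to 4.04. Cenpa, the centromeric histone, read 13.33 and 12.95 in NPK_3Month tumours and 8.83 to 9.71 in NP tumours, 14.9-fold higher (3.89 ± 0.27 SE, adjusted p = 7.93e-09). Birc5 read 11.11 and 11.05 in NPK_3Month tumours and 6.92 to 7.49 in NP tumours, with 3 probes at 3.85 to 4.55. In each of these both NPK_3Month arrays lay above every NP sample. Anln, the cytokinesis protein anillin, rose by 3.93 and Foxm1, the factor that drives mitotic genes, by 3.23. Of the list's 14 members with 2 or more probes, 9 were multi-probe rises. The list's median was 3.42 in the first NPK_3Month array and 3.40 in the second.

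Replication genes followed, with 21 of 26 higher, none lower and a median change of 1.70. Rrm2 read 11.33 and 10.44 in NPK_3Month tumours and 5.50 to 6.39 in NP tumours, 27.3-fold higher, and its second probe changed by 4.73. Rrm1, the large subunit of the same enzyme, read 10.98 and 11.47 in NPK_3Month tumours and 8.61 to 8.80 in NP tumours. Mcm4 and Mcm10, of the replicative helicase and its loading, rose by 1.64 and 2.91, and Gins2 of the same machinery by 2.17. Members that did not pass were Pcna, Rfc4, Mcm7, Lig1 and Cdc6, with changes of -0.15 to 0.81.

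Among 20 regulators of G1, 12 rose and 2 fell. Cdkn2c, an inhibitor of the cyclin D kinases, read 10.56 and 10.57 in NPK_3Month tumours and 6.21 to 8.46 in NP tumours, and Cdk4 and Cdk2 rose by 0.66 and 0.54. On the probes used, the Cdk4 and Cdk2 calls were each lost without 1 NPK_3Month array. Cdk4 was at 0.52 without the second and Cdk2 at 0.39 without the first. With all samples every probe of Cdk2 passed, at 0.54, 1.04, 1.55 and 2.12, as did both of Cdk4, at 0.66 and 1.43. Cdkn2b, another inhibitor, fell by 1.43 and Ccnd3, cyclin D3, by 0.52. Cdkn2a and Cdkn1a changed by -0.79 and 0.19 without passing. With the first NPK_3Month array left out 7 members of this list rose. Within the shared chip, 21 of 24 mitosis genes and 25 of 26 replication genes were also higher in NPK_3Month than in NPK_1Month (9.09% of all genes), with medians of 2.30 and 1.59.

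**Figure D2:**
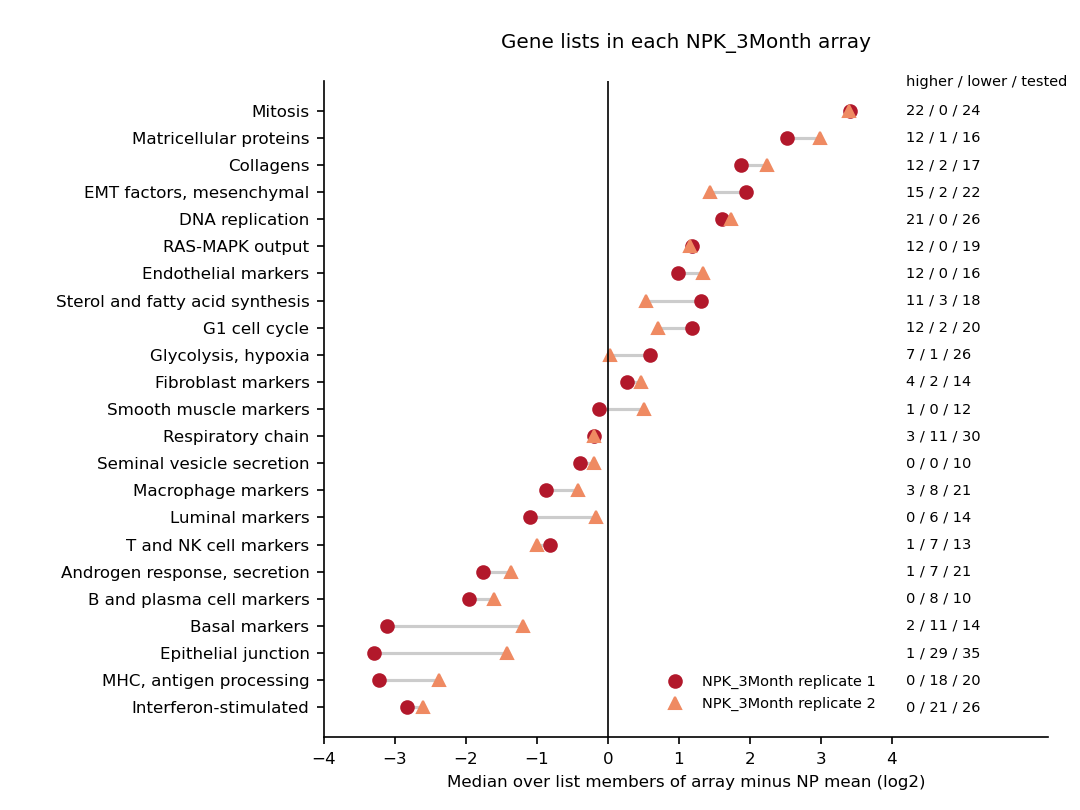
Median over the tested members of 23 gene lists of the array's level minus the NP mean, on a log2 scale, for each NPK_3Month array (red circles, first; orange triangles, second). The numbers at the right count members higher, lower and tested. Mitosis genes sit at 3.42 and 3.40, while the epithelial junction genes sit at -3.29 in the first array and -1.43 in the second.

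Genes of epithelial junctions and epithelial identity fell. Of 35 tested, 29 fell, 1 rose and 5 did not pass, with a median change of -2.46. Cdh1, E-cadherin, read 8.28 and 9.80 in NPK_3Month tumours and 11.84 to 12.53 in NP tumours with a median of 11.99, 8.39-fold lower (-3.07 ± 0.26 SE, adjusted p = 5.34e-08), and its second probe changed by -2.01. Esrp2, a splicing regulator of epithelia, read 6.13 and 8.70 in NPK_3Month tumours and 10.91 to 11.22 in NP tumours. Ap1m2, a sorting adaptor of polarized epithelium, read 5.50 and 7.40 in NPK_3Month tumours and 10.36 to 10.89 in NP tumours, with 4 probes at -4.21 to -3.74, and 1 of the 2 NPK_3Month arrays detected it. All 3 genes lay below NP in both arrays and lower in the first. Prss8, the membrane protease prostasin, and Marveld3, of tight junctions, each fell by 3.95. The 1 member that rose was Pkp2, a plakophilin of desmosomes, by 0.52, chosen after its value was seen, as are the other members named below because they moved against the rest of their list. Epcam, detected on neither NPK_3Month array and on 2 NP arrays, changed by -0.61 without passing.

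The 2 NPK_3Month arrays differed in these genes. Of the 35 genes, 30 were lower in the first NPK_3Month array than in the second, and the medians against the NP mean were -3.29 and -1.43. The mean level of the list was 6.86 and 8.31 in the NPK_3Month arrays, against 9.73 to 9.91 in NP samples, which lay close together. Against NPK_1Month on the same chip, 25 of 35 were lower, where 9.13% of all genes were, and the NPK_1Month arrays had means of 9.46 to 9.87. In these whole tumour samples, fewer cells of a type and less RNA per cell cannot be told apart.

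**Figure D3:**
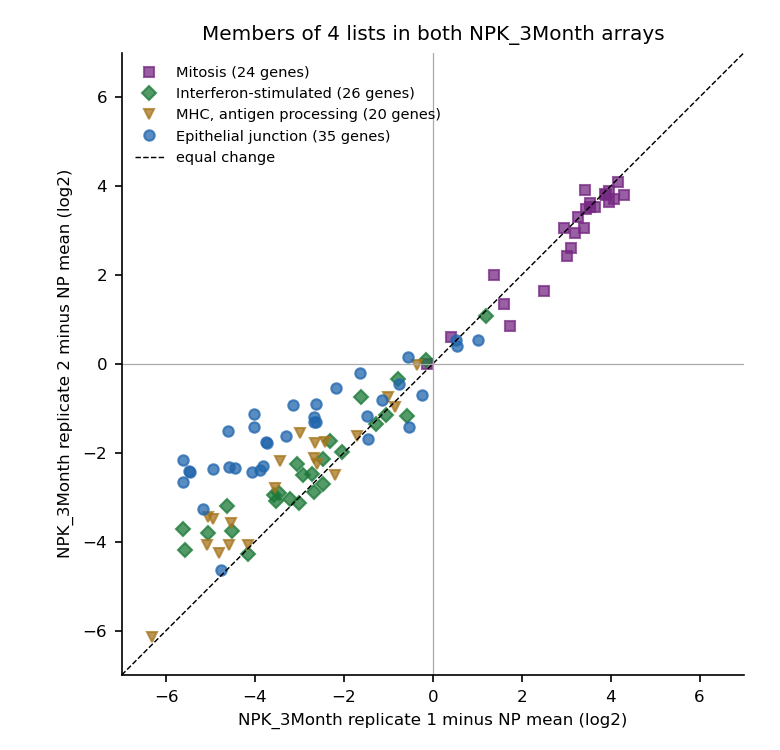
Level of each member of 4 lists in the first NPK_3Month array (x axis) and the second (y axis), both minus the NP mean on a log2 scale, with a dashed line of equal change. Mitosis genes lie along the line at the upper right and interferon-stimulated genes near it at the lower left. Of the epithelial junction genes 30 of 35 lie above the line, lower in the first array.

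Markers of the prostate's own epithelial layers moved unevenly. Of 14 luminal markers 6 fell and 8 did not pass, with Gata3 at 9.69 and 9.59 in NPK_3Month tumours and 11.68 to 12.21 in NP tumours. Krt18 fell by 1.34, Krt19 by 1.38 and Krt8 by 0.63, and Foxa1 changed by -0.43 without passing. Basal markers fell in 11 of 14. Krt15 read 11.29 and 11.42 in NPK_3Month tumours and 14.08 to 15.12 in NP tumours, 9.24-fold lower, and Col17a1, the hemidesmosomal collagen, fell on 3 of 3 probes. Without the first NPK_3Month array Col17a1 did not pass, at -1.93. Itga6 and Itgb4, the integrin pair of basal cells, rose by 1.04 and 0.67, with Itga6 at 0.56 and not past the test without the first NPK_3Month array. With the first NPK_3Month array left out 4 basal markers fell, with the NP chip of replicates 1 to 5 left out 7, and with chip as a random block 7.

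Secretory and androgen-responsive genes were spread widely within NP itself. Of 21 tested, 7 fell, 1 rose and 13 did not pass. Tmprss2, an androgen-regulated protease, read 7.61 and 11.76 in NPK_3Month tumours and 13.75 to 14.26 in NP tumours. Pigr, the receptor that carries IgA across epithelium, fell by 4.15. Acpp, prostatic acid phosphatase, fell by 3.76. The secreted proteins Tgm4, Msmb and Defb50 were detected on neither NPK_3Month array and did not pass, with NP values of 4.74 to 10.41, 4.69 to 11.32 and 4.83 to 12.73. Fkbp5, which steroid hormones induce, read 11 and 10.97 in NPK_3Month tumours and 7.09 to 10.01 in NP tumours. Of 9 urothelial genes 4 fell, among them the uroplakins Upk1b by 4.27 and Upk1a by 3.69.

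Mesenchymal genes and factors of epithelial to mesenchymal transition rose in 15 of 22 members, with a median of 1.86. Vim, the intermediate filament of mesenchymal cells, read 14.59 and 14.41 in NPK_3Month tumours and 9.67 to 10.72 in NP tumours with a median of 10.20, 19.2-fold higher (4.26 ± 0.38 SE, adjusted p = 1.35e-07). It has 1 probe. Zeb1, a repressor of E-cadherin, read 10.85 and 10.82 in NPK_3Month tumours and 7.82 to 9.26 in NP tumours, and its second probe changed by 1.17. Both arrays lay clear of NP for Vim and Zeb1. Msn, the cytoskeletal linker moesin, rose on 3 of 3 probes by 2.45 to 3.32, and Axl, a receptor kinase, by 1.89. Members that fell were Snai2, a transition factor that basal cells also express, by 1.96 and Tgfb2 by 1.54. Cdh2, N-cadherin, changed by 0.46 without passing. Against NPK_1Month on the same chip 7 of the 22 were higher and none lower, with a median of 0.88.

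Matrix genes were higher too. Of 17 collagens 12 rose and 2 fell, and of 16 matricellular and related matrix proteins 12 rose and 1 fell, with medians of 2.00 and 2.68. Fn1, fibronectin, read 14.13 and 14.19 in NPK_3Month tumours and 7.47 to 9.66 in NP tumours, 44.1-fold higher, and its 4 probes changed by 1.85, 2.89, 4.92 and 5.46. Vcan, the proteoglycan versican, read 11.15 and 9.93 in NPK_3Month tumours and 4.60 to 5.07 in NP tumours, where no array detected it, at least 32.1-fold higher, and all 5 of its probes agreed. Col6a1, of type VI collagen, read 12.59 and 12.86 in NPK_3Month tumours and 8.68 to 10.98 in NP tumours. These genes were high in both NPK_3Month arrays. Col3a1, a fibrillar collagen, rose by 2.95 and Ccn2, the connective tissue growth factor, by 2.59. The falls were Col11a1, Col14a1 and Dcn, decorin. Dcn read 12.53 and 13.69 in NPK_3Month tumours and 12.94 to 14.96 in NP tumours, with overlap. It changed by -1.41 on this probe and by -2.25, -2.40 and -2.69 on the others, all past the test. Only the probe at -2.69 showed no overlap. Without the first NPK_3Month array the probe used did not pass, at -0.83.

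Against NPK_1Month, the matrix lists differed less. The median of NPK_3Month minus NPK_1Month was 0.27 over the collagens and 0.01 over the matricellular proteins, with 2 members of each higher and 1 lower. Fn1 differed by -0.24 between the times. Vcan was higher by 3.84 in NPK_3Month than in NPK_1Month (limma adjusted p = 4.8e-06), and Cthrc1, a secreted collagen-linked protein, by 4.19. Of 14 fibroblast markers, 5 of which are also on the matrix lists, 4 rose, 2 fell and 8 did not pass. Their summed linear level was 14030 and 26345 in the NPK_3Month arrays and 12062 to 46396 in NP arrays, and their part in the matrix result was not tested.

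Enzymes that cut or protect matrix rose in 11 of 28, with 3 lower. Timp1, a protease inhibitor, read 13.31 and 13.29 in NPK_3Month tumours and 9.68 to 12.09 in NP tumours. Adamts4, an aggrecanase, rose by 3.54, while Mmp7, matrilysin of glandular epithelium, read 4.61 and 6.07 in NPK_3Month tumours and 7.93 to 11.53 in NP tumours.

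Endothelial markers rose in 12 of 16 and fell in none. None passed in NPK_3Month against NPK_1Month, and 11 of the 16 were higher in NPK_1Month than in NP. For NPK_1Month against NP the share of all genes was not computed, so its counts, here and below, are only a description. Emcn, endomucin, read 10.71 and 10.97 in NPK_3Month tumours and 8.12 to 9.26 in NP tumours, 4.02-fold higher, and Plvap, of fenestrated vessels, rose by 1.39. Kdr, the main VEGF receptor, was at least 1.61-fold higher and was detected on no NP array. The summed linear level of the list was 15507 and 14983 in the NPK_3Month arrays and 5662 to 8109 in NP arrays. With the second NPK_3Month array left out 7 of the 16 rose. Smooth muscle markers rose in 1 of 12 (Acta2, by 1.34, with overlap and an adjusted p of 0.047 in limma, and of 0.415 without the second NPK_3Month array), and none of 16 skeletal muscle genes and none of 10 seminal vesicle genes passed in limma. At an unadjusted p under 0.05, 1 skeletal muscle gene and 0 seminal vesicle genes passed, against 53.4% of all genes.

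MHC and antigen-processing genes fell almost throughout. Of 20 tested 18 fell and none rose, with a median of -2.62, and 10 of the 12 with 2 or more probes were multi-probe falls. B2m, beta-2 microglobulin, the light chain of MHC class I, read 13.74 and 13.83 in NPK_3Month tumours and 15.29 to 15.64 in NP tumours (-1.67 ± 0.13 SE, adjusted p = 1.85e-08), and its second probe changed by -1.82. H2-D1, a class I heavy chain, read 12.01 and 13.44 in NPK_3Month tumours and 14.37 to 15.45 in NP tumours. Cd74, the invariant chain of MHC class II, read 9.56 and 10.57 in NPK_3Month tumours and 14.10 to 14.80 in NP tumours, 23.8-fold lower, with 3 probes at -4.78 to -4.34. Neither class I nor class II genes overlapped between the groups in these examples. H2-Ab1, a class II chain, fell by 4.22 and H2-T23 by 3.16. Since class I genes are near-identical in sequence, single heavy chains are uncertain.

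Interferon-stimulated genes fell in 21 of 26 and rose in none, with a median of -2.68. Ifit3, whose promoter is shown above, read 10.47 and 10.65 in NPK_3Month tumours, and 11.98, 13.77 and 14.55 as the lowest, median and highest of NP. Usp18, which restrains the interferon receptor, read 9.44 and 10.00 in NPK_3Month tumours and 11.81 to 13.67 in NP tumours, 9.08-fold lower (adjusted p = 7.13e-05). Irf9, of the factor that binds the ISRE, fell by 2.02, Gbp2, a guanylate-binding protein, by 2.31 and Irgm1, an immunity GTPase, by 1.11. Igtp, whose promoter also stands above, fell by 3.31. Bst2, Isg15, Ifit2, Ifih1 and Zbp1 did not pass. The ISRE letters stood in 15 of 23 listed promoters (65.2%), in 3.99% of all genes and in 3 of 16 MHC genes (18.8%).

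The fall was also present within the chip. In NPK_3Month against NPK_1Month 20 of 26 interferon-stimulated genes and 16 of 20 MHC genes were lower, with medians of -3.00 and -2.36. Mean levels of the interferon list were 7.44 and 7.86 in the NPK_3Month arrays, 9.78 to 11.25 in NPK_1Month arrays and 8.89 to 10.80 in NP samples. NP replicate 2 held the lowest of these NP values.

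**Figure D4:**
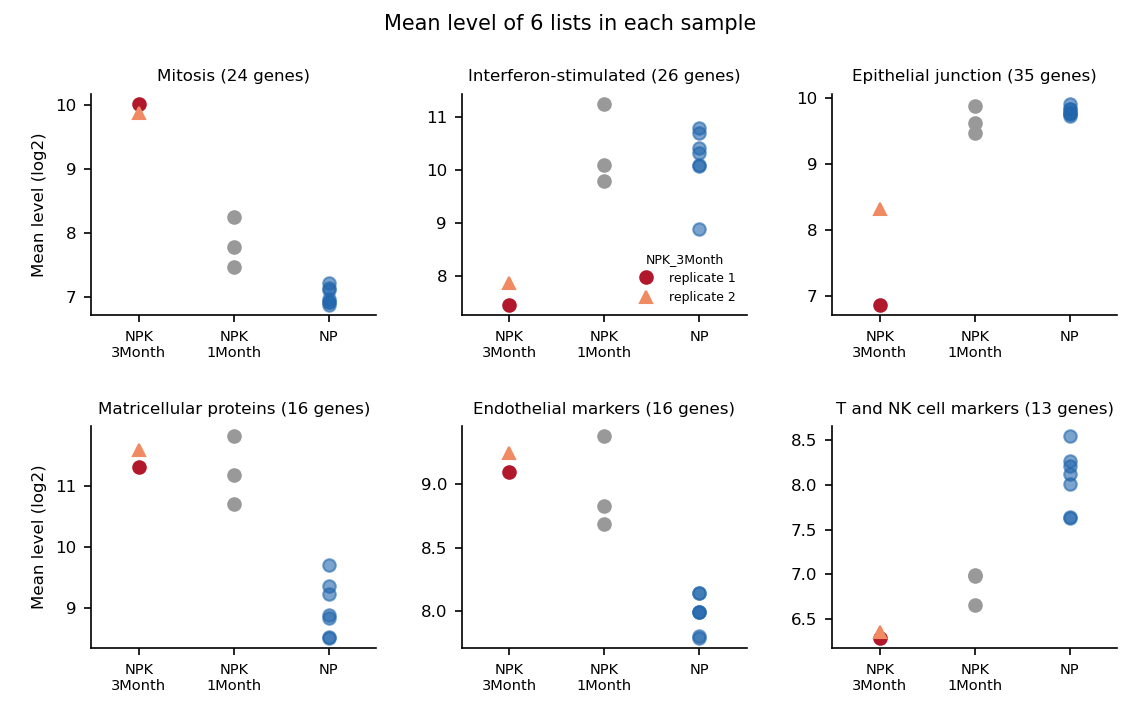
Mean level on the log2 scale of 6 lists in each sample: the 2 NPK_3Month arrays (red circle, first; orange triangle, second), the 3 NPK_1Month arrays (grey) and the 7 NP samples (blue). Each panel has its own scale, which does not start at 0. For mitosis, interferon-stimulated and epithelial junction genes the NPK_3Month arrays stand apart from both other groups, whereas for matricellular proteins and endothelial markers they lie within or near the range of NPK_1Month.

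Markers of immune cells, several of which also carry MHC and interferon genes, were lower in part. Of 13 markers of T and NK cells 7 fell, 1 rose and 5 did not pass. On the shared chip none of the 13 passed in NPK_3Month against NPK_1Month, and 1 of 10 B and plasma cell markers did, lower. In NPK_1Month against NP, 9 of the 13 were lower and 1 higher, and 6 of the 10 were lower, with no share of all genes to set beside them. Cd3e, a chain of the T cell receptor complex, read 4.55 and 4.58 in NPK_3Month tumours and 7.15 to 8.99 in NP tumours, at least 6.24-fold lower. Cd3g, Cd3d and the cytotoxic gene Nkg7 were at least 15.8-fold, 9.3-fold and 12.9-fold lower, and 10 of the 13 markers were detected in neither NPK_3Month array. None of the 3 CD3 genes was detected on either NPK_3Month array. Foxp3 rose by 0.53. The summed linear level of the list, 6877 and 5467 in the NPK_3Month arrays and 6530 to 10910 in NP arrays, overlapped. Without Cd8b1, the brightest member, the sums were 3902 and 2789 in NPK_3Month arrays and 3385 to 7708 in NP arrays. In both sums only the second NPK_3Month array lay below every NP array. B and plasma cell markers fell in 8 of 10, with Cd79b at least 6.24-fold lower, 6 of the 10 detected in neither NPK_3Month array and sums of 6911 and 6460 in NPK_3Month against 10880 to 13737 in NP arrays. Most of that sum was Xbp1, a factor of secretory cells of many kinds, and without it the sums were 157 and 229 in NPK_3Month arrays and 436 to 2998 in NP arrays. With the first NPK_3Month array left out 3 of the 10 fell.

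Macrophage markers split. Of 21, 8 fell, 3 rose and 10 did not pass, and none was undetected in both NPK_3Month arrays. In NPK_1Month against NP, 8 of the 21 were lower and 1 higher, again with no share of all genes beside them. In NPK_3Month against NPK_1Month 2 were lower. Csf1r, the growth factor receptor of macrophages, read 7.58 and 7.61 in NPK_3Month tumours and 9 to 10.45 in NP tumours, and Adgre1, the F4/80 antigen, fell by 2.02. Chil3, Msr1 and Cd163 rose, by 2.99, 1.24 and 1.08. Csf1r and Adgre1 each have another probe that changed by 0.22 and 0.72 without passing. The list's summed linear level was 52200 and 65112 in the NPK_3Month arrays and 50659 to 97644 in NP arrays. Without Lyz1, the brightest member, the sums were 28194.6 and 40532.5 in NPK_3Month arrays and 38260.8 to 63904.5 in NP arrays. The first NPK_3Month array then lay below every NP array and the second within their range. With the first NPK_3Month array left out, or with array weights, 5 fell. The part of T, B and myeloid cells in the MHC and interferon results was not tested.

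Of 31 chemokines and cytokines 10 fell, 2 rose and 19 did not pass. Tnf, the tumour necrosis factor, read 4.82 and 5.35 in NPK_3Month tumours and 8.54 to 9.47 in NP tumours, at least 10.8-fold lower, with no detection in NPK_3Month. Ccl5, a T cell chemokine, fell by 5.42, Ccl8 by 3.04 and Cxcl16 by 2.60, the last on both of its probes. The rises were Ccl6 and Cxcl12, of which Cxcl12 did not pass without the second NPK_3Month array, at 0.18. Among 10 neutrophil genes 4 fell, 1 rose and 5 did not pass. The rise was Elane, by 0.95, and it did not pass, at 0.80, with the first NPK_3Month array left out. Elane read 6.15 and 5.85 in NPK_3Month tumours, near the lowest detected levels of those arrays (5.57 and 5.56). No NP array detected it. Lcn2, a lipocalin that epithelia also secrete, read 9.23 and 12.85 in NPK_3Month tumours and 14.28 to 15.42 in NP tumours.

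Cholesterol and fatty acid synthesis rose in 11 of 18 and fell in 3, with a median of 1.01. Sqle, squalene epoxidase, read 12.09 and 12.23 in NPK_3Month tumours and 8.82 to 10.24 in NP tumours, and Fdps, which makes farnesyl groups, rose by 2.72. Srebf1, the factor that drives lipogenesis, fell by 1.59, and Fasn and Sc5d also fell. With the first NPK_3Month array left out 6 members rose. Insig1, an inhibitor of sterol synthesis, rose by 3.43 on the probe used and 3.02 on a second, while the other probe changed by -0.81. Without the first NPK_3Month array that other probe was the brightest and Insig1 did not pass, at -1.12.

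Of 26 genes of glycolysis and the hypoxia response 7 rose and 1 fell. The share that rose, 26.9%, lay near the 23.5% of all genes. Stc1, a stanniocalcin, stood at 9.88 and 10.84 in NPK_3Month tumours and 5.80 to 7.91 in NP tumours. With array weights, or with chip as a random block, 4 rose, and without the first NPK_3Month array 2. Respiratory chain subunits fell in 11 of 30 and rose in 3, with Ndufb9 of complex I lower by 2.28 and Sdhc of complex II higher by 0.89. Without the second NPK_3Month array 7 fell. Mitochondrial fatty acid oxidation fell in 7 of 20, led by Hadhb, of the trifunctional protein, at 9.08 and 8.63 in NPK_3Month tumours and 10.53 to 11.23 in NP tumours. For endoplasmic reticulum stress genes the shares, 25% higher and 20% lower, lay near those of all genes (23.5% and 23%). Endoplasmic reticulum stress genes split into 5 rises and 4 falls of 20, and without the first NPK_3Month array 1 rose. FOXO and PI3-kinase genes split into 6 and 3 of 18, and without the second array none rose. Neuroendocrine markers gave 1 rise and 2 falls of 10, with Chga, chromogranin A, at least 2.18-fold lower, Syp, synaptophysin, at least 4.56-fold lower and Ncam1 higher by 1.98. With either NPK_3Month array left out, Syp (-2.62 both times) and Ncam1 (2.04 and 1.92) did not pass.

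The limits of single probes were visible in 288 genes with probes called in opposite directions. For Actb, beta-actin, probes changed by 1.96 and 1.04 upward and by -1.72 downward, with 1 not passed at -0.24. Tnfrsf10b, a death receptor, gave 1.92 and 1.60 against -2.29, and Foxj3, a forkhead factor, 1.72, 1.19 and 1.07 against -1.52. Robo1, a guidance receptor, gave 1.53 and -1.51, Ifitm1 1.46 and -1.72, and Traf6 1.43 against -0.40 and -1.85. On the probes used, Actb, Traf6 and Robo1 did not pass without the second NPK_3Month array, at 1.15, -0.49 and 0.88, and Actb and Traf6 did not without the first, at 0.93 and -0.31. No direction is given for these genes.

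**Figure D5:**
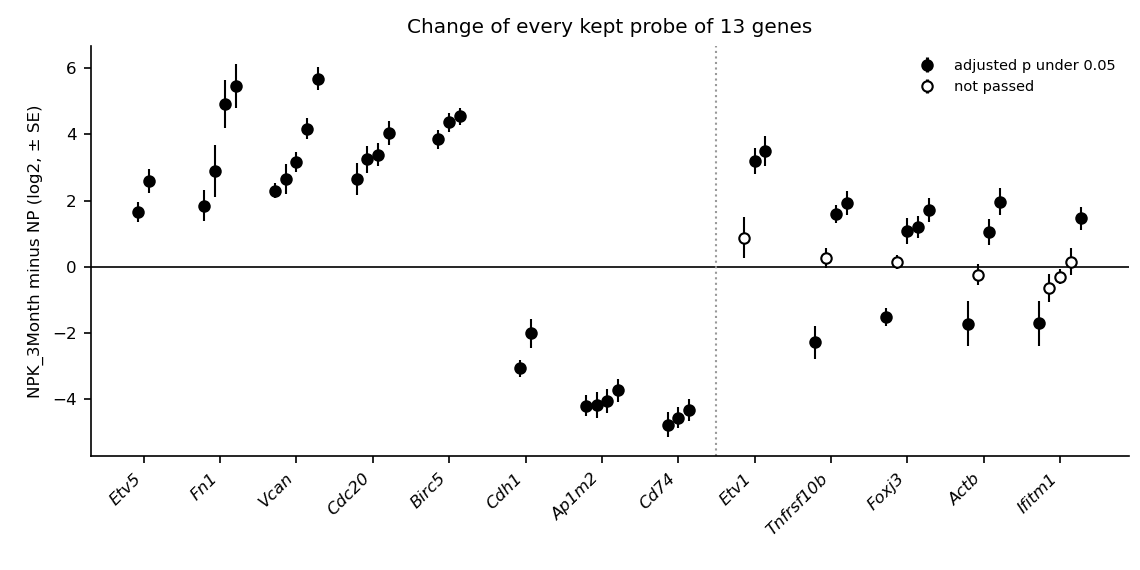
Change in NPK_3Month against NP of every kept probe of 13 genes on a log2 scale, with the moderated SE as bars. Filled points passed an adjusted p of 0.05 and open points did not. Left of the dotted line all probes of each gene moved the same way, as for Cd74 at -4.78 to -4.34. Right of it they did not all pass in 1 direction, as for Etv1 at 0.88, 3.20 and 3.49.

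The 2 NPK_3Month arrays also parted across the genome. In 3652 genes exactly 1 of the 2 arrays lay outside the NP range, the first in 2003 and the second in 1649. Among those of these genes detected on any NPK_3Month or NP array, the largest gaps were those of Svs4, Slc5a7, Serpinb11, Epb41l3, Dmbt1 and Ern2. Svs4, a seminal vesicle secretory protein, read 7.80 and 13.75 in NPK_3Month tumours and 4.90 to 11.39 in NP tumours. Slc5a7, a choline transporter, read 10.45 and 4.62 in NPK_3Month tumours and 4.60 to 5.00 in NP tumours. Dmbt1, a mucosal scavenger protein, read 4.86 and 9.65 in NPK_3Month tumours and 6.88 to 12.98 in NP tumours. Of these 6 genes Slc5a7 alone passed the limma test (adjusted p = 0.0126), with a change of -0.17 when the first array was left out.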

How the data were processed

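Illumina MouseWG-6 bead arrays measured 21 prostate tumour samples, and the comparison uses the 2 titled NPK_3Month and the 8 titled NP. RNA was extracted, checked for quality and labelled with bead-array kits, per the labels' protocols. BeadStudio and lumi are named, without a version, in the submitters' processing notes. The main table holds background-subtracted linear probe intensity with a detection p-value per probe, as deposited. A second table, which the authors normalized, is on the log2 scale as deposited and served as an alternative. Here intensity was put through a normal-exponential background model, an offset of 16 was added, and all 21 arrays were quantile normalized together and taken to log2. Probes detected (p under 0.01 in the noise model) on at least 2 arrays were kept, 25881 of 45126. Detection was computed from the intensities, and the deposited detection p-values were not used. Of all probes, 34767 had 1 gene symbol, 18 several and 10341 none, with 78 symbols unmatched in RefSeq (GRCm38.p6), and each gene was represented by its probe of highest mean. NP replicates 4 and 5 were averaged.

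Genes were tested with limma 3.58.1 (R 4.3.3), all 4 groups of the series in 1 fit two-sided (16 residual degrees of freedom), and p-values were Benjamini-Hochberg adjusted over 13195 genes. The fit pools the spread over groups, so the adjusted p-values of a group of 2 rest on the other groups as well. Probes were adjusted over all kept probes. Steps that compute statistics were tested on simulated data. A fold change of a gene with no detection in the dimmer group is a lower bound against the lowest detected signal of each array. Linear sums have the offset taken off. The number of arrays limits the precision.

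Genes named are Etv4, Etv1, Etv5, Cdh1 and Vim (some genes of the rule are not reported here), the 10 multi-probe rises and falls ranked by the smallest change over their probes, up to 5 called members of each list (multi-probe genes first, then by adjusted p), 6 genes with opposed probes and 6 with the widest gap between the NPK_3Month arrays among genes with 1 of them inside the NP range. Members that did not pass may be named with values. The members and lists were chosen with earlier results of these data known. Same-numbered samples were not treated as pairs in the main fit. The Pearson correlations of their deviations were -0.0275 for number 1 and 0.0273 for number 2. Deviations of 2 NPK_3Month arrays from their own mean mirror each other, so these values cannot decide whether samples are paired. Alternatives changed the background model, scaling, filter, offset, probe summary, arrays, weights, chip block and replicate block.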

Additional observations from a re-analysis of the deposited data

Results flagged for a closer look

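Of 171 named genes, 12 had an NP sample whose gap to the nearest of the other NP samples took an unusual share of the group's range (Dixon's ratio over its 95% critical value for 7 samples). Chance flags about 1 in 20 groups. NP replicate 6 was the sample set apart in 7 of them: Cd74 at 14.10 with the nearest sample at 14.64 (ratio 0.766), Slc45a3 at 13.69 with the nearest at 12.68 (0.689), Dcn at 12.94 with the nearest at 14.63 (0.838), Irs2 (0.602), Plaur (0.582), Timp1 at 12.09 with the nearest at 10.56 (0.636) and H2-Ab1 (0.632). Without that sample 3043 genes were higher and 2953 lower in NPK_3Month. The mean of NP replicates 4 and 5 was set apart for Aif1, at 8.66 with the nearest at 9.85 (0.842). NP replicate 2 was set apart for Foxm1 (0.657) and Lss (0.635), replicate 3 for Rrm2 at 5.50 with the nearest at 6.03 (0.595), and replicate 7 for Add2 (0.631).

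For Traf6, a signalling adaptor, the probe used gave -0.40 in NPK_3Month and 0.35 in NPK_1Month against NP, with a difference of -0.75 between the times (limma adjusted p = 0.0049). The -0.40 did not pass with either NPK_3Month array left out. On its other probes the change in NPK_3Month against NP was 1.43 and -1.85, so no direction is given for the gene.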

How the results depend on the processing

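The number of genes higher in NPK_3Month than in NP, 3096, lay between 2457 and 3162 in the alternatives that left out no NPK_3Month or NP sample, and the number lower, 3038, between 2329 and 3172. Leaving out 1 sample at a time gave 1920 to 3082 higher and 1965 to 3033 lower, 283 to 542 multi-probe rises and 174 to 347 multi-probe falls, and, beside 1200 and 1205 with all samples, 563 to 1103 higher and 554 to 1115 lower in NPK_3Month than in NPK_1Month. The low end of each range was the setting without NPK_3Month replicate 1 (the first array). A looser multi-probe rule, chosen after seeing the data, that asked for 2 passing probes and none the other way gave 858 and 544. With the replicate number as a block, 2587 were higher and 2329 lower, with 424 and 248 multi-probe rises and falls, and 977 and 1031 against NPK_1Month. Median scaling moved the median change of all genes to -0.05 and the calls against NPK_1Month to 1726 higher and 865 lower.

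Of the 170 named genes past the threshold, 124 kept it in every alternative that tested them. These were 24 for each gene except Prl2c2, which had 23. Directions turned for Etv1 (-0.35 without NPK_3Month replicate 1 and 2.11 without replicate 2), Slc5a7 (-0.17 and 5.66), Insig1 (-1.12 and 4.19, and -0.81 with NP and NPK_3Month arrays alone), and, with the mean of all probes, Foxj3 (0.52), Pdia6 (0.15) and Tnfrsf10b (0.37). For Insig1 another probe becomes the brightest. Etv1 and Slc5a7 then rest on the NPK_3Month array that is left. For Foxj3, Pdia6 and Tnfrsf10b the mean takes in probes that changed in opposite directions. Without NPK_3Month replicate 1, 30 named genes no longer passed, and without replicate 2, 20. Array number and signal over background limit the precision of genes near background.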
